A study of Mus musculus with 60 samples.

Results

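The 4 genes described here encode the unliganded aryl hydrocarbon receptor complex and its nuclear partner. They are Ahr, the receptor that binds dioxins; Arnt, its dimer partner; Hsp90ab1, the constitutive HSP90 chaperone that holds the receptor in the cytosol; and Ptges3, the co-chaperone p23. They were chosen by function, with earlier results of these data known. They are 4 of the 21115 features of the arrays, each with 1 feature (Entrez identifiers 11622, 11863, 15516 and 56351, on mouse chromosomes 12, 3, 17 and 10). The data are liver expression arrays of 60 male C57BL/6J mice, 1 animal per array, aged 12 to 15 weeks. The mice belonged to 3 transgenic lines with variant receptors, which the labels call rWT, DEL and INS. All groups were gavaged once, either with 2,3,7,8-tetrachlorodibenzo-p-dioxin (TCDD, a potent ligand of the receptor) at 125, 250, 500 or 1000 µg/kg, or with the corn oil vehicle alone at 10 mL/kg, and liver was taken after 96 hours. In order of corn oil and rising dose, the groups held 5, 3, 3, 4 and 2 rWT mice, 5, 4, 4, 4 and 4 DEL mice, and 5, 4, 4, 4 and 5 INS mice.

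As general background, the receptor waits in the cytosol bound to an HSP90 dimer with p23 and other co-chaperones. Ligand binding sends it to the nucleus, where it leaves the chaperones, pairs with ARNT and binds a short core sequence near its target genes, such as Cyp1a1. In liver this pathway induces drug-metabolizing enzymes and a repressor of the receptor itself, and the liganded receptor protein is degraded. Also from general knowledge and not from the labels, lines of these names carry rat receptor variants, so the mouse Ahr feature may read an endogenous transcript, a transgene transcript or both; these cannot be told apart here. The promoter that drives the transgene and the state of the endogenous gene are not known from the labels.

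Every value below is a deposited log2 expression value, and a difference of 1 is a doubling. The text calls a difference when its limma p-value, adjusted by Benjamini and Hochberg's method over all 21115 features, was under 0.05. Array medians differed between lines (5.65 to 6.01 in rWT, 5.81 to 6.25 in DEL, 5.22 to 5.38 in INS), so corn oil levels between lines are also given after quantile normalization. On 4 rWT arrays labelled male (corn oil replicates 3, 4 and 5 and TCDD 500 replicate 4) the female-specific RNA Xist read 10.7 to 11.4, against 2.41 to 3.44 on the other 56, and Y-linked Eif2s3y read 2.73 to 3.37 against 8.15 to 9.72. They include 3 of the 5 rWT corn oil arrays. The averaged effects of the 4 genes in rWT are given with and without all 4 arrays, while some other rWT results are given only with them. The liver label matched its markers, since the mean of 8 hepatocyte genes was 12.5 to 13.3 on every array. Direct target genes of the receptor responded to TCDD in each line: 6 of 7 rose in rWT, DEL and INS alike, Aldh3a1 being the exception. Over all features 40.7%, 34.3% and 0.568% were called in these lines, in either direction. In INS, the line with the fewest called features, Cyp1b1 still rose by 6.25 ± 0.27 (SE) and Cyp1a1 by 4.85 ± 0.18, with limma adjusted p-values of 4.27e-24 and 7.96e-27.

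Against those responses the 4 complex genes moved little. Of the 12 averaged TCDD effects (4 genes in 3 lines, each the mean of the 4 dose groups minus corn oil), 2 were called: Hsp90ab1 rose in DEL and Ptges3 fell in rWT. Over all features 40.7% were called in rWT, 34.3% in DEL and 0.568% in INS, so 1 call among 4 genes in rWT and in DEL is no more than the background share, and none among 4 in INS is what that background gives. All 12 averaged effects lay between -0.40 and 0.29, which is at most a 1.32-fold change. The plot of averaged effects shows them with their intervals.

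**Figure D1:**
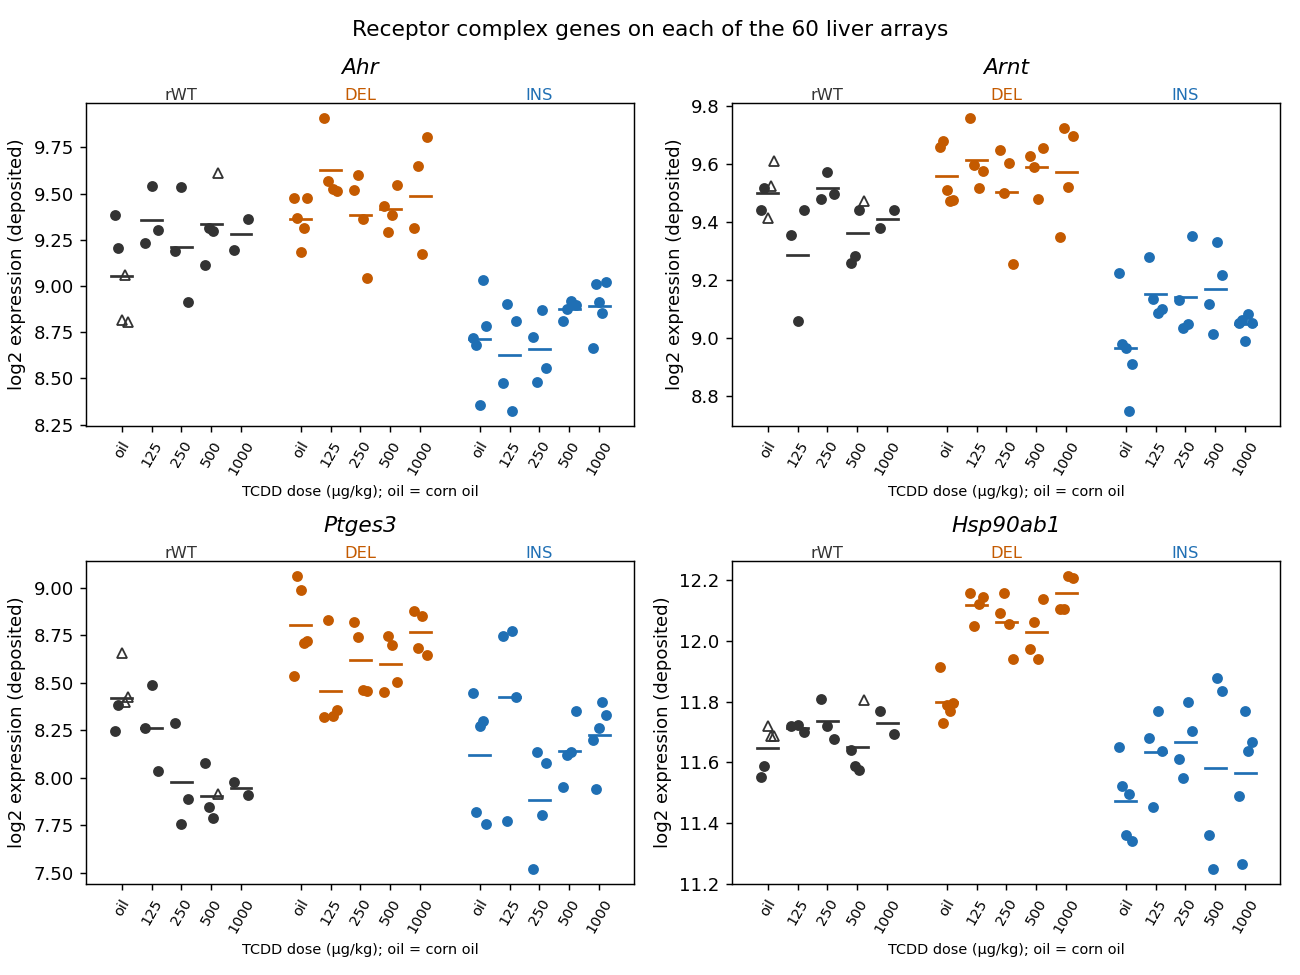
Deposited log2 expression (y axis) of Ahr, Arnt, Ptges3 and Hsp90ab1 by line and TCDD dose in µg/kg (x axis), 1 point per array and a bar at each group mean; open triangles are the 4 rWT arrays whose sex-linked genes went against the label. In the Hsp90ab1 panel all 16 TCDD-treated DEL arrays lie above the 5 DEL corn oil arrays, as for 5.88% of all features. In the Ptges3 panel 9 of the 12 treated rWT arrays lie below all 5 rWT corn oil arrays, of which 3 are open triangles. The share of all features placed like Ptges3 in rWT was not counted.

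**Figure D2:**
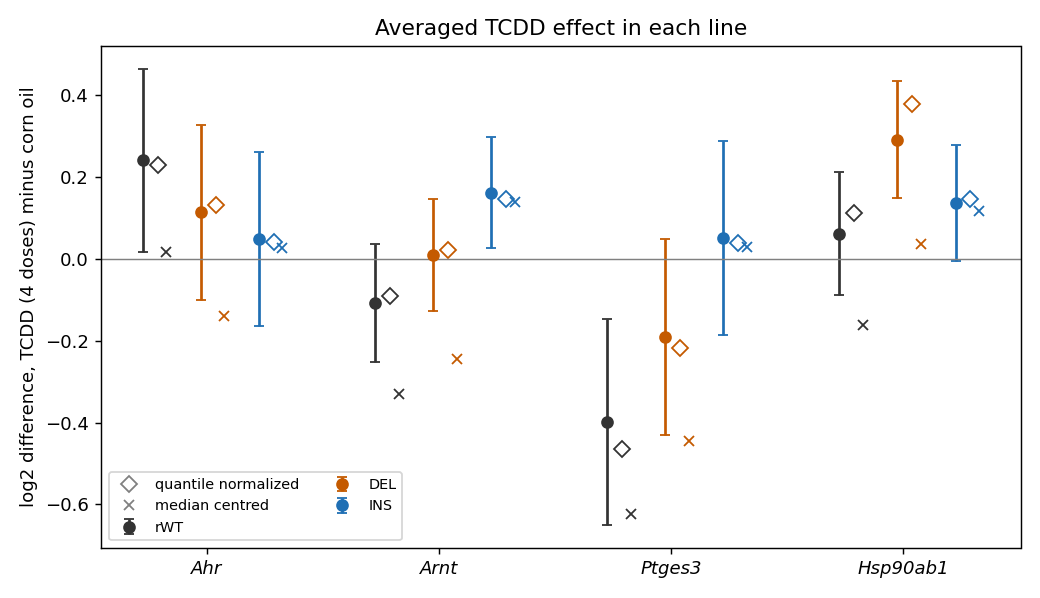
Averaged TCDD effect (log2 difference, mean of 4 doses minus corn oil, y axis) of each gene in each line; filled points are deposited values with 95% confidence intervals, diamonds are quantile normalized values and crosses are values after centring each array on its median. The intervals of Ptges3 in rWT and Hsp90ab1 in DEL lie on 1 side of 0 and both were called, while median centring brought Hsp90ab1 in DEL to 0.04. The intervals, which are not adjusted for the number of features, also lie on 1 side of 0 for Ahr in rWT and Arnt in INS, which were not called.

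Ahr, the receptor gene, was expressed in all 15 groups and was not called for TCDD in any line. In rWT corn oil livers it read 9.38, 9.21, 8.82, 9.06 and 8.81 in replicates 1 to 5. The 3 lowest of these values came from the 3 arrays with sex-linked genes against the label (8.81 to 9.06), and the other 2 read 9.21 and 9.38. This difference was not tested, and how many of all features separate these arrays was not counted. The treated rWT means were 9.36 ± 0.16 (SD, n = 3) at 125 µg/kg, 9.21 ± 0.31 (n = 3) at 250, 9.33 ± 0.21 (n = 4) at 500 and 9.28 ± 0.12 (n = 2) at 1000, against 9.06 ± 0.25 (n = 5) in corn oil. Of the 12 treated arrays 9 lay inside the corn oil range and 3 above it. The averaged effect in rWT was 0.24 ± 0.11 (SE; 95% confidence interval 0.02 to 0.46; limma adjusted p = 0.0790). Without the 4 arrays it was -0.023 ± 0.15 (adjusted p = 0.920).

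In DEL, Ahr averaged 9.36 ± 0.12 (n = 5) in corn oil and 9.63 ± 0.19, 9.38 ± 0.25, 9.41 ± 0.11 and 9.49 ± 0.29 at the 4 rising doses (n = 4 each). Of the 16 treated DEL arrays 9 were above all corn oil arrays and 2 were below, and the averaged effect was 0.11 ± 0.11 (limma adjusted p = 0.433). In INS, corn oil livers averaged 8.72 ± 0.24 (n = 5), and the treated groups 8.63 ± 0.27, 8.66 ± 0.18 and 8.88 ± 0.048 (n = 4 each) and 8.89 ± 0.15 (n = 5). All but 1 of the 17 treated INS arrays lay within the corn oil range, and the averaged effect was 0.05 ± 0.11 (95% confidence interval -0.16 to 0.26). As deposited, the order of the 15 group means ran from DEL through rWT to INS, but no neighbouring pair differed by more than the larger SD of the pair. The middle array median was also highest in DEL and lowest in INS. After quantile normalization the order did not hold. The Ahr mean of rWT TCDD 500 (9.31) was then above DEL TCDD 1000 (9.25), and INS TCDD 1000 (9.17) above DEL corn oil (9.14). Median centring turned the uncalled averaged effect of Ahr in DEL to -0.14.

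Arnt, the gene of the nuclear partner that the liganded receptor needs to bind DNA, was not called for TCDD in any line as deposited. Its promoter window holds 1 copy of GCGTG, the core of the sequence that the receptor and ARNT bind, and is shown because this is where such a complex could act on the gene itself; the capitals mark the match.
Arnt (RefSeq, GRCm38.p6, chr3:95434140-95434439, + strand, from 250 bases before to 50 bases after the start): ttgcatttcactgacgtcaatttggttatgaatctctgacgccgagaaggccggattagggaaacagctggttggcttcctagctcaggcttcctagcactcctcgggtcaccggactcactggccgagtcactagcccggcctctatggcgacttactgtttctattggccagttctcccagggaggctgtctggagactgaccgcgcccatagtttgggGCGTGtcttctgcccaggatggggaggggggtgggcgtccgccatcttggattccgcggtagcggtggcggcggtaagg
The match begins at position -29 from the start. GCGTG was searched on both strands, as GCGTG and CACGC, and 32.4% of the 32851 promoter windows of this length (10639) hold at least 1 copy, so its presence does not set Arnt apart. Among the induced targets, the windows of Cyp1a1, Cyp1b1 and Tiparp hold 1 copy each and that of Ahrr 3, while those of Nqo1 and Cyp1a2 hold none in these 300 bases.

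In DEL livers Arnt read 9.66, 9.68, 9.51, 9.47 and 9.48 in corn oil. The treated DEL means were 9.61 ± 0.10, 9.50 ± 0.18, 9.59 ± 0.078 and 9.57 ± 0.17 (SD, n = 4 each), against 9.56 ± 0.10 in corn oil. The groups overlapped at every dose, and the averaged effect was 0.0097 ± 0.068 (95% confidence interval -0.13 to 0.15; limma adjusted p = 0.930). After median centring the same effect was -0.24 (adjusted p = 0.00559), a change of sign. The same centring moved the median difference of all features from -0.05 to -0.31 in DEL and from -0.07 to -0.29 in rWT.

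In rWT, Arnt read 9.44, 9.52, 9.41, 9.52 and 9.61 in corn oil, and the arrays with sex-linked genes against the label (9.41 to 9.61) spanned the other 2. The treated means were 9.29 ± 0.20 (n = 3), 9.52 ± 0.049 (n = 3), 9.36 ± 0.11 (n = 4) and 9.41 ± 0.044 (n = 2). Of 12 treated arrays 5 were below all corn oil arrays and none was above, but the averaged effect of -0.11 ± 0.071 was not called (limma adjusted p = 0.231), nor was it without the 4 arrays (-0.094 ± 0.10, adjusted p = 0.501). It was called after median centring (-0.33, adjusted p = 0.000599). In INS the values ran the other way. Corn oil livers read 9.23, 8.98, 8.97, 8.75 and 8.91, and the treated means were 9.15 ± 0.089, 9.14 ± 0.15 and 9.17 ± 0.14 (n = 4 each) and 9.05 ± 0.035 (n = 5), against 8.97 ± 0.17 (n = 5). Here 3 of 17 treated arrays exceeded all corn oil arrays, 14 lay within their range, and the averaged effect was 0.16 ± 0.068 (limma adjusted p = 0.491).

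Hsp90ab1 encodes HSP90 beta, the constitutive chaperone that keeps the unliganded receptor able to bind ligand, and it gave the most separated groups of the 4 genes. In DEL corn oil livers it read 11.92, 11.73, 11.79, 11.77 and 11.80. At 125 µg/kg the values were 12.16, 12.05, 12.12 and 12.14, and at 250 µg/kg they were 12.09, 12.16, 12.06 and 11.94. At 500 µg/kg they were 11.97, 12.06, 11.94 and 12.14, and at 1000 µg/kg they were 12.11, 12.10, 12.21 and 12.21. All 16 treated DEL arrays lay above all 5 corn oil arrays, as was so, in the upward direction, for 5.88% of all features in DEL. Hsp90ab1 rose in DEL by 0.29 ± 0.071 (SE; 95% confidence interval 0.15 to 0.43; 1.22-fold; limma adjusted p = 0.000947); 16.7% of all features rose in this contrast. The rise was 0.38 (adjusted p = 3.39e-05) after quantile normalization but 0.04 (adjusted p = 0.712) after median centring, which sets the array medians equal; as deposited these were 5.81 to 5.90 in DEL corn oil livers and 5.92 to 6.25 in treated DEL livers.

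In rWT, Hsp90ab1 read 11.55, 11.59, 11.72, 11.69 and 11.69 in corn oil. The 3 arrays whose sex-linked genes went against the label were above the other 2, a difference that was not tested. The treated means were 11.71 ± 0.013 (n = 3), 11.74 ± 0.067 (n = 3), 11.65 ± 0.11 (n = 4) and 11.73 ± 0.054 (n = 2), against 11.65 ± 0.072 (n = 5). Of the 12 treated arrays 7 lay within the corn oil range, and the averaged effect was 0.06 ± 0.075 (limma adjusted p = 0.526), or 0.13 ± 0.11 (adjusted p = 0.379) without the 4 arrays. In INS the spread was wider: corn oil livers averaged 11.47 ± 0.13 (n = 5), and the treated groups 11.64 ± 0.13, 11.67 ± 0.11 and 11.58 ± 0.32 (n = 4 each) and 11.57 ± 0.20 (n = 5). There 8 of 17 treated arrays were above all corn oil arrays and 2 below, and the averaged effect of 0.14 ± 0.071 was not called (limma adjusted p = 0.694). Median centring turned the uncalled rWT value to -0.16.

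Ptges3 encodes p23, which binds the ATP-bound form of HSP90 and steadies its complexes with client receptors. Its promoter window holds 2 copies of the same core, 1 on each strand, beginning at positions -213 and -21 from the start; 10.9% of windows hold 2 or more. It is shown beside that of Arnt because these are the members with a window in the table used, and the capitals again mark GCGTG or CACGC.
Ptges3 (RefSeq, GRCm38.p6, chr10:128058732-128059031, + strand, from 250 bases before to 50 bases after the start): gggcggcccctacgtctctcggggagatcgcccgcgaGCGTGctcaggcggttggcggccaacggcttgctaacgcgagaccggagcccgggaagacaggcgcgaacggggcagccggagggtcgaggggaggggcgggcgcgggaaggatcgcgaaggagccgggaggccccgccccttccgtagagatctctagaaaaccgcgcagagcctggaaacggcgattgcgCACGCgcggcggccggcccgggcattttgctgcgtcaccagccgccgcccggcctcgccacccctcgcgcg
A match of letters is a description and not a binding site, and no binding was measured in these livers.

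In rWT corn oil livers Ptges3 read 8.25, 8.38, 8.66, 8.40 and 8.43. The values were 8.26, 8.49 and 8.04 at 125 µg/kg, and 8.29, 7.76 and 7.89 at 250 µg/kg. They were 8.08, 7.84, 7.79 and 7.91 at 500 µg/kg, and 7.98 and 7.91 at 1000 µg/kg. At 500 and 1000 µg/kg (4 and 2 arrays) every treated array was below every corn oil array, while the 2 lower doses overlapped them. How many of all features separated in this way was not counted, and the slope of Ptges3 on dose in rWT was not called. Ptges3 fell in rWT by 0.40 ± 0.12 on the log2 scale (1.32-fold lower; limma adjusted p = 0.00858), where 20.4% of all features fell. The fall did not hold without the 4 arrays: it was then -0.29 ± 0.18 (95% confidence interval -0.66 to 0.08; adjusted p = 0.215), and 36.1% of all features were still called in rWT. The 3 corn oil arrays among those 4 read 8.40 to 8.66, above the other 2 at 8.25 and 8.38, a difference that was not tested.

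In DEL, Ptges3 averaged 8.80 ± 0.22 (n = 5) in corn oil and 8.46 ± 0.25, 8.62 ± 0.19, 8.60 ± 0.14 and 8.77 ± 0.12 at the 4 doses (n = 4 each). Of 16 treated arrays 7 were below all corn oil arrays and none above, and the averaged effect of -0.19 ± 0.12 was not called (limma adjusted p = 0.223). It was called after median centring (-0.44, adjusted p = 0.00200), where the median of all features was -0.31. In INS the 17 treated arrays ran from 7.52 to 8.77 with a median of 8.13, around corn oil livers at 8.45, 7.82, 8.27, 8.30 and 7.76. The INS effect was 0.05 ± 0.12 (95% confidence interval -0.19 to 0.29). Among the 15 group means of Arnt, Ptges3 and Hsp90ab1 the only neighbours further apart than the larger of their SDs were Arnt in rWT corn oil over rWT TCDD 1000 (by 0.09) and Hsp90ab1 in DEL TCDD 500 over DEL corn oil (by 0.23).

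The single doses repeated this pattern, with 5 of 48 dose effects called; 12 had an unadjusted p under 0.05. In DEL, Hsp90ab1 rose at 125 µg/kg by 0.32 ± 0.093 (limma adjusted p = 0.0114), at 250 by 0.26 ± 0.093 (adjusted p = 0.0352) and at 1000 by 0.36 ± 0.093 (adjusted p = 0.00273). At 500 µg/kg it was 0.23 ± 0.093 and missed the threshold (adjusted p = 0.0609), but was called after quantile normalization (0.35, adjusted p = 0.00354). The share of all features called in DEL was 17.2%, 22.5%, 27.5% and 27.0% at the 4 rising doses. Median centring ended all 3 calls, at 0.11 (adjusted p = 0.452) for 125 µg/kg, -0.00091 (adjusted p = 0.995) for 250 and 0.078 (adjusted p = 0.560) for 1000. The call at 250 µg/kg was lost when any of 7 of the 9 arrays compared was left out, with values from 0.23 to 0.30.

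In rWT, Ptges3 fell at 250 µg/kg by 0.44 ± 0.17 (limma adjusted p = 0.0410) and at 500 by 0.52 ± 0.16 (adjusted p = 0.0111). It was -0.16 ± 0.17 at 125 µg/kg (adjusted p = 0.537) and -0.48 ± 0.19 at 1000 (adjusted p = 0.0598), where only 2 mice were measured; the latter was called after quantile normalization (-0.56, adjusted p = 0.0200) and median centring (-0.73, adjusted p = 0.00384). The share of all features called in rWT was 23.9%, 30.9%, 23.4% and 28.5%. Without the 4 arrays neither call held, at -0.34 ± 0.22 (adjusted p = 0.247) and -0.41 ± 0.22 (adjusted p = 0.171), and the call at 250 µg/kg was lost when any of 6 of 8 arrays was left out, with values from -0.60 to -0.33. In INS limma called 0 of 16 dose effects, with 3 at an unadjusted p under 0.05, where the background shares were 0.0805%, 0.142%, 0.232% and 1.02%. As deposited, Ahr and Arnt were not called at any dose in any line. After median centring Arnt was called as lower at 125, 500 and 1000 µg/kg in rWT (-0.44, -0.34 and -0.34) and at 250, 500 and 1000 µg/kg in DEL (-0.32, -0.24 and -0.27). The centred median of all features was -0.28, -0.22 and -0.36 in those rWT contrasts and -0.32, -0.31 and -0.36 in those DEL contrasts. Of the 21115 features, centring called 8131 at 125 and 10046 at 1000 µg/kg in rWT. In DEL it called 10649, 10732 and 12232 at 250, 500 and 1000 µg/kg.

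No dependence on dose among treated mice passed the test. In limma, 0 of 12 slopes of the treated group means on log2 dose were called and 1 had an unadjusted p under 0.05. That was Ahr in INS, at 0.10 ± 0.044 per doubling of dose (limma adjusted p = 0.684). The background share was 0.0284% in rWT, 0% in DEL and 0.0426% in INS, that is 6, 0 and 9 features, against 746, 2260 and 1352 with an unadjusted p under 0.05. The slope of Hsp90ab1 in DEL was 0.0085 ± 0.031 per doubling (95% confidence interval -0.05 to 0.07). The slope of Ptges3 in rWT was -0.10 ± 0.066, with an interval from -0.24 to 0.03.

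Whether a response differed between lines was tested on the difference itself, and 1 of 12 such differences was called. The Arnt effect in INS exceeded that in rWT by 0.27 ± 0.098 (95% confidence interval 0.07 to 0.47; limma adjusted p = 0.0433), from values of 0.16 in INS and -0.11 in rWT, neither of them called. The background share in that contrast was 20.9%. The call did not hold after quantile normalization (0.24, adjusted p = 0.105), without the 4 rWT arrays (0.26, adjusted p = 0.142) or under 17 of 39 omissions of a single array. For Ptges3 the INS effect exceeded the rWT effect by 0.45 ± 0.17 and missed the threshold (limma adjusted p = 0.0552), while quantile normalization gave 0.50 (adjusted p = 0.0228).

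For Hsp90ab1, called in DEL alone, the responses were not shown to differ: DEL minus rWT was 0.23 ± 0.10 (95% confidence interval 0.02 to 0.44; limma adjusted p = 0.341) and INS minus DEL was -0.15 ± 0.10 (-0.36 to 0.05; adjusted p = 0.364). The background shares were 1.11% for DEL minus rWT and 14.1% for INS minus DEL. For Ahr the 3 differences lay between -0.19 and -0.07, all with adjusted p-values of 0.414 or more. The interval of INS minus rWT for Ahr ran from -0.50 to 0.12.

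Corn oil livers of the 3 lines differed in 7 of 12 tests as deposited and in 0 of 12 after quantile normalization with limma, where 1 had an unadjusted p under 0.05. As deposited, INS was below DEL for all 4 genes: Ptges3 by 0.68 ± 0.15, Ahr by 0.65 ± 0.13, Arnt by 0.59 ± 0.084 and Hsp90ab1 by 0.33 ± 0.088, with limma adjusted p-values from 7.23e-08 to 0.00115. The median of all features in that contrast was -0.54 and 75.5% of them were called, so Ahr, Arnt and Ptges3 lay a little below the median shift and Hsp90ab1 above it. After quantile normalization the 4 values were -0.16 for Ptges3, -0.16 for Ahr, -0.13 for Arnt and -0.14 for Hsp90ab1, where 8.15% of features were called. After median centring Arnt was 0.011 and Hsp90ab1 0.28.

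Between INS and rWT, Arnt was lower by 0.54 ± 0.084 (limma adjusted p = 2.76e-06) and Ahr by 0.34 ± 0.13 (adjusted p = 0.0336), against a median of -0.29 and 41.8% of features called. Quantile normalization gave -0.22 for Arnt (adjusted p = 0.0841) and -0.029 for Ahr (adjusted p = 0.919), and median centring gave 0.12 for Ahr. Leaving out the 4 rWT arrays moved the deposited Ahr difference to -0.58 ± 0.17 (limma adjusted p = 0.00759). Between DEL and rWT, Ptges3 was higher in DEL by 0.38 ± 0.15 (adjusted p = 0.0382), against a median of 0.24 and 36.0% of features called, and by 0.20 (adjusted p = 0.381) after quantile normalization, where 13.4% were called. Ahr was 0.31 ± 0.13 higher in DEL than in rWT and missed the threshold (adjusted p = 0.0599). In these contrasts the line and anything else that differed between the lines' arrays cannot be told apart.

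**Figure D3:**
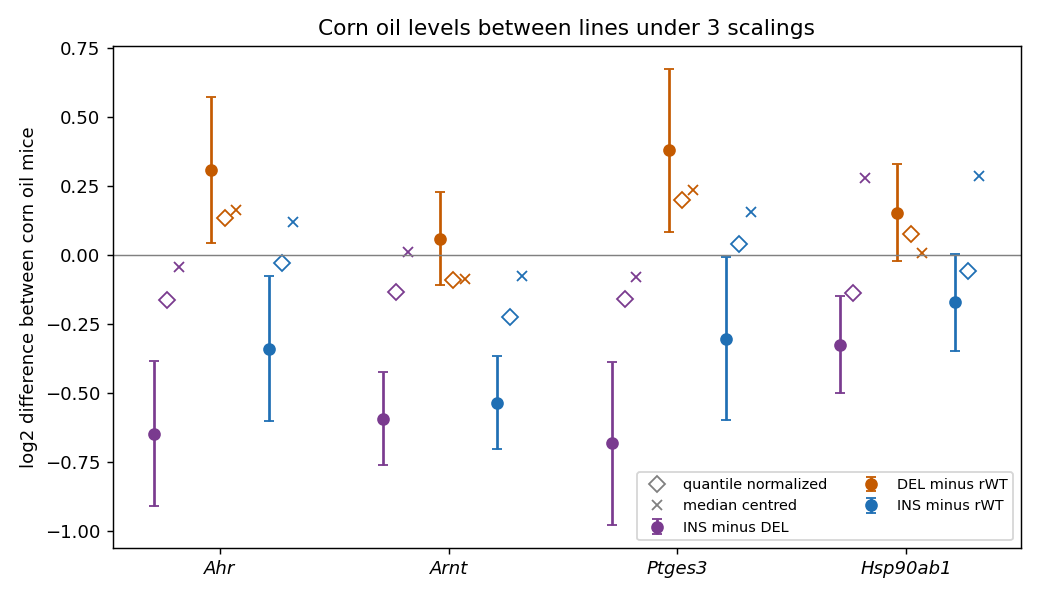
Differences between lines in corn oil livers (log2, y axis) for each gene; filled points are deposited values with 95% confidence intervals, diamonds are quantile normalized values and crosses are median centred values. The INS minus DEL values of all 4 genes move from between -0.68 and -0.33 as deposited to between -0.16 and -0.13 after quantile normalization, and Hsp90ab1 changes sign after median centring.

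The other HSP90 paralogues and co-chaperones, the machinery that loads and releases client receptors, held several larger changes than the 4 complex genes in rWT and DEL. Of 21 genes, 4 rose and 7 fell in rWT, 4 rose and 2 fell in DEL, and 1 rose and none fell in INS, where 40.7%, 34.3% and 0.568% of all features were called in rWT, DEL and INS. The rWT and DEL counts are near that background. The list medians were 0.03, 0.07 and 0.09, against -0.07, -0.05 and -0.01 over all features. Fkbp4, the HSP90-binding immunophilin FKBP52 that favours hormone binding by steroid receptors, had the largest change of the list in rWT: it fell by 1.59 ± 0.21 in rWT (limma adjusted p = 1.16e-08) and by 0.87 ± 0.20 in DEL (adjusted p = 0.000381) and was -0.021 ± 0.20 in INS, not called. The effect of INS exceeded that of rWT by 1.57 ± 0.28 (adjusted p = 3.91e-05) and that of DEL by 0.85 ± 0.28 (adjusted p = 0.0306), and the rWT fall was -1.61 without the 4 arrays.

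Fkbp5, the related immunophilin FKBP51 that opposes FKBP52 at steroid receptors, rose by 0.87 ± 0.30 in rWT (limma adjusted p = 0.0150) and by 1.37 ± 0.28 in DEL (adjusted p = 0.000108), and was 0.51 in INS (adjusted p = 0.741). Its rise in rWT was 2.21 (adjusted p = 7.57e-07) without the 4 arrays. Unc45a, a myosin co-chaperone that binds HSP90, rose by 0.73 in rWT and 0.44 in DEL, and St13, the HSP70-interacting protein Hip, fell by 0.42 in DEL (adjusted p = 0.0278). The DEL call of Unc45a was lost after median centring (0.19, limma adjusted p = 0.138). Dnaja1, an HSP40 co-chaperone, fell by 0.79 in rWT (adjusted p = 0.00105), a call lost without the 4 arrays (-0.46, adjusted p = 0.125). Hspa8, the constitutive HSP70, was the gene called in INS, where it rose by 0.31 ± 0.069 (adjusted p = 0.0117).

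Hsp90aa1 was named after its values were seen, because its product can take the place of HSP90 beta in the cytosolic complex. Hsp90aa1, the stress-inducible HSP90 paralogue, was 0.54 in rWT (adjusted p = 0.131), 0.20 in DEL and -0.36 in INS, and was not called. The counts of this list depended on the arrays and the scaling. With those 4 rWT arrays left out, 6 genes rose in rWT and 1, Fkbp4, fell. After median centring 2 rose and 8 fell in rWT, 1 rose and 8 fell in DEL, and none was called in INS, where quantile normalization kept 1 rise. Centring called 13735 of all 21115 features in rWT and 13835 in DEL, with medians of -0.29 and -0.31, so these falls are no excess over that background.

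**Figure D4:**
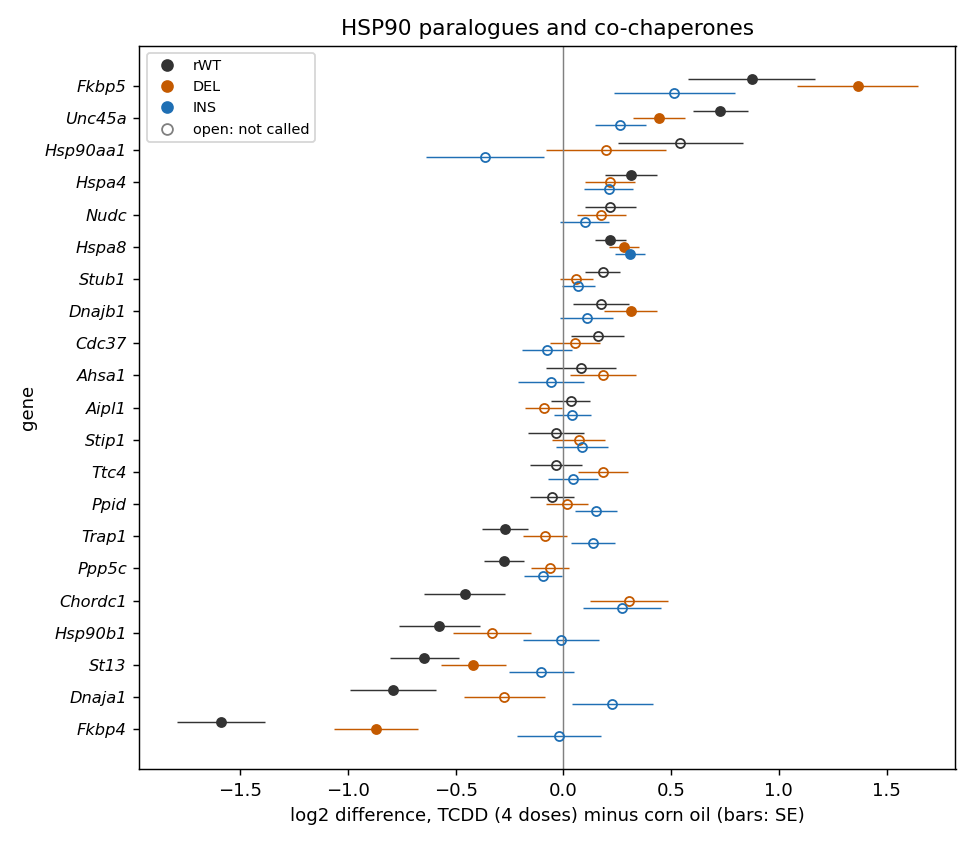
Averaged TCDD effect (log2 difference, x axis, bars SE) of 21 HSP90 paralogues and co-chaperones (y axis, ordered by the rWT value) in each line; filled points were called and open points were not. Fkbp4 lies at -1.59 in rWT, -0.87 in DEL and -0.02 in INS, and Fkbp5 at 0.87, 1.37 and 0.51.

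Among 14 other bHLH-PAS genes, the family of AHR and ARNT that includes hypoxia and clock factors, 2 rose and none fell in rWT, 2 rose and 3 fell in DEL, and 1 rose in INS. Against 40.7%, 34.3% and 0.568% of all features called, the rWT count is below the background and the DEL count near it. The list medians were 0.04, -0.15 and -0.02, against -0.07, -0.05 and -0.01 over all features. Ahrr, the AHR repressor that competes for ARNT and a direct target, rose by 5.03 ± 0.25 in rWT, 4.30 ± 0.24 in DEL and 2.90 ± 0.24 in INS. Arntl2, a partner of the clock protein CLOCK, rose by 0.42 in rWT (limma adjusted p = 0.00318) and 0.31 in DEL (adjusted p = 0.0272); both calls were lost after quantile normalization, and the rWT call also without the 4 arrays (0.39, adjusted p = 0.0541). Sim1, Npas1 and Npas3, neuronal factors, fell in DEL by 0.37, 0.23 and 0.18. Sim1 and Npas1 had low mean log2 values of 3.77 and 3.95, under the filter at 4 used as an alternative. After quantile normalization 2 genes of this list, not 3, fell in DEL. The hypoxia factors Hif1a and Epas1, partners of ARNT named after their values were seen, were not called: Hif1a was 0.14 in rWT, 0.03 in DEL and -0.07 in INS and Epas1 was -0.32, -0.42 and -0.11. Without the 4 arrays Ahrr alone rose and Epas1 (-0.70) and Npas1 (-0.31) fell in rWT, and after median centring 6 of the 14 fell in rWT and 9 in DEL. That centring called 13735 of all 21115 features in rWT and 13835 in DEL, with medians of -0.29 and -0.31.

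Of 17 nuclear coregulators and genes of receptor turnover, 6 rose and 2 fell in rWT, 4 rose and 3 fell in DEL, and 1 rose in INS, with list medians of 0.22, 0.08 and -0.0043 against -0.07, -0.05 and -0.01 over all features. The rWT and DEL counts are near the 40.7% and 34.3% of all features called there, and 0.568% were called in INS. Nfe2l2, the NRF2 gene that the receptor induces, was called in each line, at 1.66 ± 0.13 in rWT, 1.5 ± 0.13 in DEL and 0.82 ± 0.13 in INS, and INS was below rWT by 0.84 ± 0.18 (limma adjusted p = 0.000531). Ddb1, the adaptor of CUL4 ubiquitin ligases, rose by 0.83 in rWT and 0.41 in DEL, and E2f1, a cell-cycle factor that AHR can bind, by 0.80 and 0.54. Both DEL calls were lost after median centring, at 0.16 for Ddb1 (limma adjusted p = 0.272) and 0.28 for E2f1 (adjusted p = 0.0534). Cul4a, a scaffold of cullin-RING ubiquitin ligases, fell by 0.56 in rWT (adjusted p = 2.96e-05) but was -0.27 (adjusted p = 0.118) without the 4 arrays, and Cul4b, the scaffold of the ubiquitin ligase that includes liganded AHR, fell by 0.41 in DEL. Leaving out the 4 arrays, 3 rose and 3 fell in rWT, and after median centring 3 rose and 4 fell in rWT and 1 rose and 8 fell in DEL. With that centring 13735 of all 21115 features were called in rWT and 13835 in DEL, with medians of -0.29 and -0.31.

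Several lists of markers of other liver cells also changed under TCDD in rWT and DEL. Over all features 40.7% were called in rWT, 34.3% in DEL and 0.568% in INS. In INS, no call in a list is what that share gives. Of 9 Kupffer cell and macrophage markers, 7 rose and 1 fell in rWT, all 9 rose in DEL and none was called in INS. Their mean over the list was 7.61 to 7.91 in DEL corn oil and 8.75 to 10.4 in DEL TCDD, 7.38 to 8.31 and 8.28 to 10.1 in rWT, and 7.21 to 7.5 and 7.21 to 8.27 in INS. All 5 neutrophil markers rose in rWT and DEL, and none was called in INS. Their mean was 4.14 to 4.80 in rWT corn oil livers and 4.98 to 9.35 in treated ones, and 4.51 to 4.90 and 5.89 to 8.52 in DEL. In INS it was 3.55 to 4.05 and 3.50 to 4.32, so these lists overlapped between corn oil and TCDD in INS and did not in DEL.

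Of 6 stellate cell markers, 4 rose in rWT and 5 in DEL, and none was called in INS. Hepatocyte markers fell: 4 of 8 in rWT, 6 of 8 in DEL and none in INS, with list means of 13.2 to 13.3 in DEL corn oil and 12.6 to 13.2 in DEL TCDD. Of the other lists, lymphocyte markers had 1 rise and 1 fall among 5 in rWT, and endothelial markers 1 and 1 among 5 in rWT and 2 and 1 in DEL. Cholangiocyte markers had none among 4, and erythroid markers 2 falls of 2 in rWT and 1 in DEL. The hepatocyte, lymphocyte and endothelial counts in rWT are near the 40.7% of all features called there. Without the 4 rWT arrays, 8 macrophage markers rose and 0 fell in rWT, and 5 stellate markers rose. There 5 hepatocyte markers then fell, 1 cholangiocyte marker rose and 0 lymphocyte markers were called. Because whole liver was measured, fewer cells of a type and less RNA per cell cannot be told apart, and the part of these shifts in the Hsp90ab1 and Ptges3 results was not tested.

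Correlations between the 4 genes were weak. Over the 60 arrays, after subtracting each line's mean, Pearson's r between members was -0.36 for Ahr with Ptges3 and 0.32 for Arnt with Hsp90ab1, and from 0.0093 to 0.14 for the other 4 pairs. Among 19599 named features compared in the same way, the closest to Ahr were Tbcel (r = 0.70), Deaf1 (0.69) and Fzd7 (0.64). The closest to Arnt were Hnrnpu (0.65), Ogdh (0.61) and Flt1 (0.60), and the closest to Ptges3 were As3mt (0.68), Oma1 (0.67) and Ngrn (0.66). Hsp90ab1 was matched best by Nagpa (0.72), Exoc3 (0.68) and Nars (0.68). These are descriptions over arrays that share treatment, scaling and tissue makeup.

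As3mt, the arsenite methyltransferase closest to Ptges3, was -0.88 in rWT, -0.67 in DEL and 0.03 in INS, where Ptges3 was -0.40, -0.19 and 0.05. Exoc3, a subunit of the exocyst, was 0.88, 0.86 and 0.74 in the 3 lines, and Nars, the cytosolic asparaginyl-tRNA synthetase, was 0.52, 0.57 and 0.48, where Hsp90ab1 was 0.06, 0.29 and 0.14. None of the 12 closest genes is on the lists of the HSP90 machinery, the bHLH-PAS family or the coregulators. These lists hold only 21, 14 and 17 genes, against 19599 features compared, so that absence says little.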

How the data were processed

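Liver RNA was measured on Affymetrix arrays, and the authors deposited RMA values on the log2 scale with a single feature for each Entrez gene, made in R 3.1.2 with affy 1.44.0 per the submitters' processing notes. The genome build and how probes were grouped are not given here, probe sequences were not used, and cross-hybridization with paralogues such as Hsp90aa1 or processed copies was not tested. All 21115 features were used unfiltered and unscaled. RefSeq named 20932 of them by Entrez identifier, and 183 had no name. The means of all 15 groups were fitted together in limma 3.58.1 under R 4.3.3 with its moderated two-sided test, a procedure tested first on simulated data. Contrasts were the averaged, per-dose and log2-dose TCDD effects in each line, their differences between lines, and corn oil differences, with Benjamini-Hochberg adjustment within each contrast. Intervals are 95% confidence intervals, and the number of arrays limits their precision.

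Promoter windows of 250 bases before and 50 bases after the start came from RefSeq (GRCm38.p6), and 2 of the 4 genes had one. The members and lists were chosen with earlier results of these data known. Genes named from a list are its called members with the largest averaged effect, up to 4 per line, and for each member the 3 most correlated genes, with exceptions stated. Alternatives were quantile normalization, median centring, a filter at a mean log2 of 4, omission of single arrays and of the 4 rWT arrays, the replicate number as a block, trended robust variances and fits within the lines compared. The replicate numbers did not meet the rule for pairing samples. The highest correlation between any 2 arrays was 0.996, and no array was a duplicate. One gene of the co-chaperone list is not reported here.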

Additional observations from a re-analysis of the deposited data

Results flagged for a closer look

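In DEL livers at 125 µg/kg TCDD, Ahr on replicate 1 read 9.91, apart from the other 3 arrays at 9.52 to 9.57, and Ptges3 on replicate 2 read 8.83, apart from the other 3 at 8.32 to 8.36. These were the 2 groups of 48 in which 1 array stood apart from the rest by Dixon's test, and chance alone sets apart about 1 in 20 groups. Without replicate 2 the Ptges3 effect at 125 µg/kg in DEL was -0.47 and was called by limma (adjusted p = 0.0482), against -0.34 with it (adjusted p = 0.130).

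The difference of the Arnt response between lines was called, with INS above rWT by 0.27 (limma adjusted p = 0.0433), where 20.9% of all features were called. Its adjusted p ranged from 0.0114 to 0.132 over omissions of 1 array. The call was lost after quantile normalization (adjusted p = 0.105) and without the 4 rWT arrays (adjusted p = 0.142).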

How the results depend on the processing

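Alternatives were run on 36 member results (averaged effects, their differences between lines and corn oil differences). Hsp90ab1 in DEL kept its call under every alternative except median centring, and Ptges3 in rWT under every one except those without the 4 rWT arrays. After quantile normalization Arnt INS minus rWT was 0.24 and Ptges3 INS minus rWT 0.50. In corn oil, INS minus DEL was then -0.16 for Ahr, -0.13 for Arnt, -0.16 for Ptges3 and -0.14 for Hsp90ab1, Ptges3 DEL minus rWT was 0.20, and INS minus rWT was -0.029 for Ahr and -0.22 for Arnt. Quantile normalization without the 4 arrays, chosen after seeing the data, gave -0.39 for Ptges3 in rWT, 0.25 for Arnt INS minus rWT, and the same 4 corn oil values for INS minus DEL (-0.16, -0.13, -0.16 and -0.14). It also gave 0.28 for Ptges3 DEL minus rWT and, for INS minus rWT, -0.29 for Ahr and -0.23 for Arnt.

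Median centring gave averaged effects of -0.33 for Arnt in rWT (now called), -0.24 for Arnt in DEL (reversed and called), -0.44 for Ptges3 in DEL (now called) and 0.038 for Hsp90ab1 in DEL (call lost). At single doses in DEL it reversed Hsp90ab1 at 250 µg/kg (-0.00091) and Arnt at 500 (-0.24) and 1000 (-0.27). Differences between lines became 0.38 for Arnt and 0.47 for Ptges3 in INS minus DEL, and 0.65 for Ptges3 in INS minus rWT. In corn oil, INS minus DEL became -0.044 for Ahr, 0.011 for Arnt, -0.079 for Ptges3 and 0.28 for Hsp90ab1. Ptges3 DEL minus rWT became 0.23, and INS minus rWT became 0.12 for Ahr, -0.076 for Arnt and 0.29 for Hsp90ab1. The cause of these changes was not tested. The features called rose from 8584 to 13735 in rWT, from 7245 to 13835 in DEL and from 2978 to 6423 for INS minus DEL. Quantile normalization took corn oil counts from 15950 to 1720 (INS minus DEL), 7600 to 2823 (DEL minus rWT) and 8825 to 3240 (INS minus rWT).

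Leaving out features with a mean log2 under 4 gave 0.45 for Ptges3 INS minus rWT (limma adjusted p = 0.0441) and 0.38 for Ptges3 DEL minus rWT in corn oil (adjusted p = 0.0544). Without the 4 arrays Ptges3 in rWT was -0.29, Arnt INS minus rWT 0.26 and Ptges3 DEL minus rWT in corn oil 0.49, and the INS count went from 120 to 192. With trended robust variances Arnt INS minus rWT was 0.27 (adjusted p = 0.0595). With the replicate number as a block it was 0.27 (adjusted p = 0.0537), and the block changed no other call. Same-numbered arrays did not meet the rule for pairing, that every pair correlate above 0.1: 46 of 108 same-number pairs did, with a median r of 0.076, against 102 of 374 different-number pairs, with a median of -0.024. Fits within the lines compared changed none of the 36 calls, but at single doses they added calls for Ptges3 in rWT at 1000 µg/kg and Hsp90ab1 in DEL at 500 µg/kg, as quantile normalization did; median centring and the filter also added the former.

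Leaving out 1 array at a time gave 0.18 to 0.32 for Ahr in rWT, which was called without corn oil replicate 1 or TCDD 250 replicate 3. Arnt INS minus rWT ran from 0.21 to 0.33 and Ptges3 INS minus rWT from 0.36 to 0.53. In corn oil, Ahr DEL minus rWT ran from 0.25 to 0.39, Ptges3 DEL minus rWT from 0.31 to 0.45, Ahr INS minus rWT from -0.42 to -0.25 and Ptges3 INS minus rWT from -0.39 to -0.21. No omission took the calls of Ptges3 in rWT (-0.44 to -0.34) or Hsp90ab1 in DEL (0.27 to 0.32). The DEL minus rWT count of 235 ran from 147 to 585. The groups of 2 to 5 arrays limit precision, and at TCDD 1000 rWT had 2. Signal over background was not in the deposited values.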
